A study of Mus musculus with 16 samples.

Results

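The genes described are 9 that encode subunits of Polycomb repressive complex 2 (PRC2): Ezh1, Ezh2, Eed, Suz12, Rbbp7, Mtf2, Phf19, Jarid2 and Aebp2. They were taken by gene symbol from the 34042 genes of the table, and all 9 were among the 18555 genes that passed the low-count filter. PRC2 places methyl groups on lysine 27 of histone H3, a mark of repressed developmental genes. EZH2 or EZH1 carries the catalytic domain and is active only together with EED and SUZ12, while RBBP7 or RBBP4 binds histones. Accessory subunits define 2 alternative forms: PRC2.1, which holds MTF2, PHF19 or PHF1, and PRC2.2, which holds JARID2 and AEBP2. In mouse embryonic stem (ES) cells the complex is known as dispensable for self-renewal and needed for proper differentiation.

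RNA was sequenced in 16 libraries from 5 lines of cultured mouse pluripotent cells. Formative stem cells (FS), captured as a state between naive and primed pluripotency, gave 6 libraries in A3XR medium. FS replicates 1 to 3 were passages 10, 12 and 14 of the line 5ar1, and FS replicates 4 to 6 were passages 12, 4 and 5 of the line 5ar3. Primed cells, called epiblast stem cells (EpiSCs), came from AFX6 cultured in AFX medium (EpiSC_AFX, 3 libraries at passages 12, 5 and 8) and from AF32 cultured in AF medium (EpiSC_AF, 3 libraries at passages 13, 14 and 15). Naive ES cells came from E14IV-C kept in 2iL (4 libraries at passages 12, 13, 15 and 20). Outside FS each group was 1 line, so line and medium cannot be told apart. The labels do not say that passages were separate derivations. The p-values therefore measure the spread between passages of a line, estimated over all groups together. In comparisons between groups that spread also holds the difference between the FS lines 5ar1 and 5ar3. The design addresses how the formative state stands to naive and primed cells.

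Total counts were 22069338 to 33290250 per library. Levels are CPM, the count of a gene relative to the total of its library, with edgeR's TMM scaling. The summed level of 5 naive markers was 2169 to 3414 CPM in the ES libraries and 3.39 to 12.6 in all others. That of 4 post-implantation epiblast markers was 39.6 to 103 CPM in ES and 834 to 2246 in FS. It was 1003 to 1195 CPM in EpiSC_AFX and 945 to 1279 in EpiSC_AF. These sums set ES apart from the other groups, but not FS from the EpiSCs. Dnmt3b gave the largest part of the epiblast sum, with 588 to 1942 CPM in FS. Taken singly, only Otx2 of the 4 separated FS (133 to 215 CPM) from EpiSC_AFX (96.4 to 117), and none separated FS from EpiSC_AF. ES replicate 1 stood apart: the mitochondrial gene mt-Rnr2 took 38.1% of its counts, against 17.7% to 18.97% in the other ES libraries. Among 4 equal classes of transcript length, the median deviation of its longest class minus that of its shortest was -0.64 on the log2 scale, and -0.38 to 0.24 in the other 15 libraries. Members' results against ES are therefore also given without it, and those of other genes where its removal changed a call or moved a change by more than 1.5 times. In bulk RNA, fewer cells of a type and less RNA per cell cannot be told apart.

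Promoter sequences are shown for Mtf2, Eed and Suz12, which were lower in all 3 other groups than in ES with no overlap of libraries, and for Ezh2, whose libraries overlapped between ES and each other group. Each starts 250 bases before the transcript start and ends 30 bases after it, on the strand of the gene, from RefSeq on GRCm38.p6. The windows were chr5:108065424-108065703 (plus strand) for Mtf2, chr7:89980947-89981226 (minus strand) for Eed, chr11:79992856-79993135 (plus strand) for Suz12 and chr6:47595001-47595280 (minus strand) for Ezh2. Capitals mark CCAAT boxes, read as ATTGG on the other strand, and the E2F motif.
Mtf2: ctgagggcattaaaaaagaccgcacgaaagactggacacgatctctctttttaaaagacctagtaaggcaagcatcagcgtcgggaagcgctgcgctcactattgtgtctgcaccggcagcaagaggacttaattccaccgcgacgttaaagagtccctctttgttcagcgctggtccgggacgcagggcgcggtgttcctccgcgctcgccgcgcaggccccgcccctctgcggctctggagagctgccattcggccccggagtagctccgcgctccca
Eed: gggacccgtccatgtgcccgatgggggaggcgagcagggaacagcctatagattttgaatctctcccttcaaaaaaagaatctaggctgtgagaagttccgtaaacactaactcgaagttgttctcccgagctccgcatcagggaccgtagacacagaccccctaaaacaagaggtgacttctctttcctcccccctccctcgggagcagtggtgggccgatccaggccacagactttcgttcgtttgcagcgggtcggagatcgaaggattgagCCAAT
Suz12: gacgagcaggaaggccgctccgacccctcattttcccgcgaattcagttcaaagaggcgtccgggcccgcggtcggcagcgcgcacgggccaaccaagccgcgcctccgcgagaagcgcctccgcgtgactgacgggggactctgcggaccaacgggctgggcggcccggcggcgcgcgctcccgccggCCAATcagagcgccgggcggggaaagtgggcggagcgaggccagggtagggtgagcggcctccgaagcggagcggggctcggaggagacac
Ezh2: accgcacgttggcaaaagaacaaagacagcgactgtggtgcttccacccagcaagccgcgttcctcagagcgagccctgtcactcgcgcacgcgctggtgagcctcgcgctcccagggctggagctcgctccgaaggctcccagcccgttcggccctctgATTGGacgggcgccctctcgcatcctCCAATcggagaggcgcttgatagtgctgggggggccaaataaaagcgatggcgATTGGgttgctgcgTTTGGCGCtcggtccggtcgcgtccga

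All 9 genes had RefSeq promoter windows of 300 bases, with more than 1 start for Mtf2, Jarid2 and Aebp2. Of the 4 shown, Mtf2 held none of the 6 motifs searched at this start, while its other start, at chr5:108077915-108078214, held CCAAT. Eed and Suz12 held 1 CCAAT box each, 25 bases after and 61 bases before the start. Ezh2 held CCAAT at 90, 64 and 11 bases before the start and the E2F letters TTTGGCGC at 3 bases after it. On both strands, CCAAT occurred in 37.4% of 32851 mouse promoter windows of this length, and the E2F letters (TTTCGCGC or TTTGGCGC) in 0.813%. No motif searched occurred in all 3 of Mtf2, Eed and Suz12 at the starts shown. None of the 4 held AAGGTCA (Esrrb), ATGCAAAT (octamer), GCATGCGC (NRF1) or AAGATGGC (YY1), which occurred in 4.72%, 1.74%, 2.71% and 2.75% of windows, and no matches overlapped each other. The 300-base windows held 30 CpG dinucleotides in Mtf2, 17 in Eed, 41 in Suz12 and 31 in Ezh2, against a median of 7. A match in letters is a description and not a binding site.

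In the comparison of FS with ES, 5 of the 9 subunit genes were lower and 1 was higher (edgeR's quasi-likelihood test, Benjamini-Hochberg adjusted p under 0.05), beside 62.8% of all tested genes called in either direction. Mtf2, Eed, Suz12, Aebp2 and Rbbp7 fell and Phf19 rose, while Ezh2, Ezh1 and Jarid2 did not pass the test. The libraries of FS and ES did not overlap for 4 of 9 genes, against 46.3% of all genes. EpiSC_AFX against ES gave 6 calls, 5 lower and 1 higher (54.7% of all genes called), and 7 genes without overlap (58.7% of all genes). EpiSC_AF against ES gave 4 calls, all lower (56.7% of all genes), and 4 genes without overlap (62.3% of all genes). The counts of 9 genes are set beside these shares as a description only. These 3 comparisons share the ES libraries. The median log2 change of the 9 genes was -0.64 in FS, -1.04 in EpiSC_AFX and -0.38 in EpiSC_AF against ES, and over all tested genes 0.04, 0.01 and 0.01. All 16 of these calls held without ES replicate 1.

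**Figure D1:**
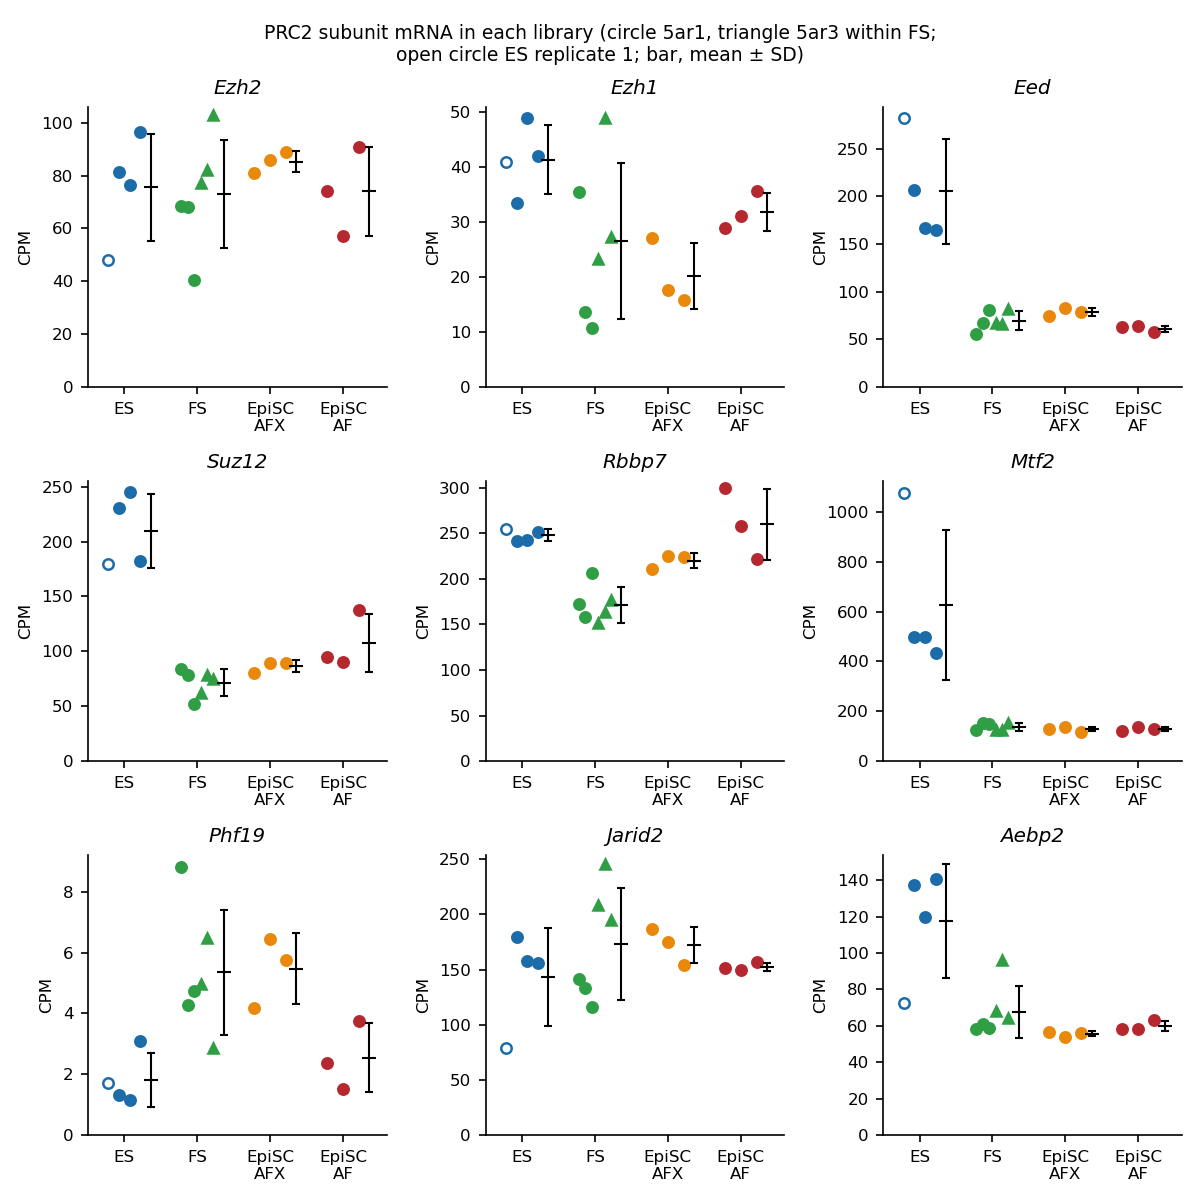
Level of each PRC2 subunit gene in every library, in CPM (linear axis, TMM scaling), by group; bars are the mean and SD, the open circle is ES replicate 1, and circles and triangles in FS are the lines 5ar1 and 5ar3. Mtf2, Eed and Suz12 of all 12 other libraries lie below every ES library, while Ezh2 and Jarid2 overlap between ES and each other group.

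Ezh2, on chromosome 6 (GRCm38, 47530139-47595341, ENSMUSG00000029687), encodes the catalytic subunit with the higher methyltransferase activity and is the form known from dividing cells. Its level was 47.9, 81.5, 76.5 and 96.4 CPM in ES replicates 1 to 4, and 40.3 to 103 with a median of 72.9 in FS. EpiSC_AFX gave 81.0, 86.0 and 88.8 CPM, and EpiSC_AF 74.2, 57.3 and 90.9. The lowest values were in FS replicate 3 and ES replicate 1, and the groups overlapped. The log2 difference from ES was -0.05 in FS (SE 0.22, edgeR adjusted p = 0.856), 0.17 in EpiSC_AFX and -0.03 in EpiSC_AF. Without ES replicate 1 these were -0.21, 0.01 and -0.19, again with no call.

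Ezh1, on chromosome 11 (101191115-101226463, ENSMUSG00000006920), encodes the alternative catalytic subunit, known as the form kept in cells that have left the cell cycle. It was at 40.8, 33.5, 48.9 and 42.0 CPM in ES and at 10.7 to 49.0 with a median of 25.2 in FS. It was at 27.02, 17.6 and 15.8 CPM in EpiSC_AFX and at 28.9, 31.1 and 35.6 in EpiSC_AF. FS covered the whole range of the other groups, whereas every EpiSC_AFX library lay below every ES library. Ezh1 fell 2.05-fold in EpiSC_AFX against ES (log2 change -1.04, SE 0.38, edgeR adjusted p = 0.0297). That call was lost with total counts as the only scaling (adjusted p = 0.112), with no low-count filter (0.0733), and without EpiSC_AFX replicate 2 (0.0950), EpiSC_AFX replicate 3 (0.113) or ES replicate 3 (0.0646). The difference of FS from ES was -0.64 (SE 0.31, adjusted p = 0.0837). It passed without FS replicate 5 (-0.91, 0.00898), with 5ar1 alone (-1.05, 0.0151) or with passage as a covariate (-1.07, 0.0296). Leaving out ES replicate 1 gave -0.64 in FS, -1.04 in EpiSC_AFX (edgeR adjusted p = 0.0492, close to the threshold) and -0.37 in EpiSC_AF.

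Eed, on chromosome 7 (89954654-89980983, ENSMUSG00000030619), encodes the subunit that binds methylated lysine 27 and stimulates the catalytic subunit. Its level was 282, 207, 167 and 165 CPM in ES and 55.8 to 82.1 with a median of 67.3 in FS. The values were 74.0, 82.4 and 78.3 CPM in EpiSC_AFX and 62.5, 63.5 and 57.8 in EpiSC_AF. No library of FS or of either EpiSC group reached the lowest ES library, and ES replicate 1 was the highest of ES. Eed was 2.94-fold lower in FS (log2 change -1.56, SE 0.15, edgeR adjusted p = 6.19e-08), 2.62-fold lower in EpiSC_AFX (-1.39, SE 0.18) and 3.35-fold lower in EpiSC_AF (-1.74, SE 0.18). Without ES replicate 1 the log2 changes were -1.36, -1.19 and -1.54. Of its stretches of 50 exon bases, 5.82% also occur in other genes, mostly in the opposite-strand E230029C05Rik, whose level was at most 2.55 CPM in any library.

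Suz12, on chromosome 11 (79993106-80034123, ENSMUSG00000017548), encodes the scaffold that holds the catalytic part and the accessory subunits together. It was at 180, 230.5, 245 and 182 CPM in ES and at 51.7 to 83.4 with a median of 76.5 in FS. EpiSC_AFX gave 80.4, 89.7 and 89.2 CPM and EpiSC_AF 94.5, 90.5 and 137. Every ES library was above every other library, with EpiSC_AF replicate 3 nearest to them. Against ES, Suz12 was 2.93-fold lower in FS (log2 change -1.55, SE 0.15, edgeR adjusted p = 1.1e-07), 2.42-fold lower in EpiSC_AFX (-1.28, SE 0.19) and 1.95-fold lower in EpiSC_AF (-0.96, SE 0.19). Unlike Eed and Mtf2, Suz12 was not higher in ES replicate 1 than in the other ES libraries, and without it the log2 changes were -1.62, -1.34 and -1.02.

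Rbbp7, on the X chromosome (162760402-162779092, ENSMUSG00000031353), encodes a histone-binding protein that PRC2 shares with other chromatin complexes. It was at 255, 242, 243 and 252 CPM in ES and at 152 to 207 with a median of 168 in FS. EpiSC_AFX gave 211, 225 and 224 CPM, and EpiSC_AF gave 300.2, 258 and 222. All FS libraries were below every library of the other 3 groups. Rbbp7 was 1.44-fold lower in FS than in ES (log2 change -0.53, SE 0.11, edgeR adjusted p = 0.000307), while the change was -0.17 in EpiSC_AFX (adjusted p = 0.266) and 0.07 in EpiSC_AF (0.670). Leaving out ES replicate 1 gave log2 changes of -0.52 in FS, -0.15 in EpiSC_AFX and 0.09 in EpiSC_AF. Scaling by total counts alone ended the FS call (-0.17, adjusted p = 0.303). That scaling moved the median change of all genes from 0.04 to 0.40. Of its 50-base stretches, 11.2% occur in other genes, chiefly Gm6382, which had means of 8.02 CPM in FS and 11.3 in ES. The opposite-strand gene Txlng shares 174 exon bases with Rbbp7 and had means of 30.8 CPM in FS and 46.7 in ES.

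Mtf2, on chromosome 5 (108065674-108109004, ENSMUSG00000029267), encodes a Polycomb-like protein that recruits PRC2.1 to unmethylated CpG islands. Its level was 1076, 499.6, 497 and 432 CPM in ES and 123 to 152 with a median of 137 in FS. EpiSC_AFX gave 130, 137 and 118 CPM and EpiSC_AF 121, 138 and 129. The 12 libraries outside ES stayed between 118 and 152 CPM, and ES replicate 1 was above every other library. Mtf2 was 4.56-fold lower in FS (log2 change -2.19, SE 0.20, edgeR adjusted p = 3.86e-08), 4.88-fold lower in EpiSC_AFX (-2.29, SE 0.25) and 4.85-fold lower in EpiSC_AF (-2.28, SE 0.25). Without ES replicate 1 the log2 changes were -1.80, -1.89 and -1.88, still the largest fall among the 9 genes in each of the 3 comparisons. The opposite-strand gene Tmed5 shares 395 exon bases with Mtf2 and had means of 31.9 CPM in FS and 36.5 in ES.

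Phf19, on chromosome 2 (34893757-34914026, ENSMUSG00000026873), encodes a further Polycomb-like protein, which binds histone H3 methylated at lysine 36. It had the lowest level per length of the 9 genes in every group, with 1.73, 1.31, 1.14 and 3.10 CPM in ES and 2.87 to 8.82, median 4.86, in FS. EpiSC_AFX gave 4.18, 6.46 and 5.76 CPM and EpiSC_AF 2.38, 1.503 and 3.75. FS overlapped ES only through ES replicate 4 and FS replicate 6, EpiSC_AFX lay above all ES libraries, and EpiSC_AF overlapped both FS and ES. Phf19 rose 2.93-fold in FS against ES (log2 change 1.55, SE 0.36, edgeR adjusted p = 0.00122) and 2.99-fold in EpiSC_AFX (1.58, SE 0.40, adjusted p = 0.00318). In EpiSC_AF the change was 0.48 (SE 0.41, adjusted p = 0.337). Leaving out ES replicate 1 gave 1.53 in FS, 1.56 in EpiSC_AFX and 0.46 in EpiSC_AF. Phf19 was the single member called higher than in ES in any group.

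Jarid2, on chromosome 13 (44729474-44921643, ENSMUSG00000038518), encodes a subunit of PRC2.2 that itself has a catalytically inactive demethylase fold. It was at 78.8, 180, 158 and 156 CPM in ES and at 116 to 245 with a median of 168 in FS. EpiSC_AFX gave 186, 175 and 154 CPM and EpiSC_AF 151, 149 and 157. Leaving ES replicate 1 aside, all values of ES and both EpiSC groups lay within the range of FS. The log2 difference from ES was 0.27 in FS (SE 0.22, edgeR adjusted p = 0.290), 0.26 in EpiSC_AFX and 0.09 in EpiSC_AF. Without ES replicate 1 these were 0.07, 0.07 and -0.10. With 5ar3 as the only FS line the difference of FS from ES passed the test (0.60, adjusted p = 0.0205), and with 5ar1 alone it was -0.15.

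Aebp2, on chromosome 6 (140622663-140678472, ENSMUSG00000030232), encodes the zinc-finger partner of JARID2 in PRC2.2. Its level was 72.6, 137, 120 and 141 CPM in ES and 58.5 to 96.2 with a median of 62.6 in FS. EpiSC_AFX gave 56.8, 54.1 and 56.2 CPM and EpiSC_AF 58.4, 58.2 and 63.0. FS replicate 5 overlapped ES replicate 1, and both EpiSC groups lay below every ES library. Aebp2 was 1.74-fold lower in FS (log2 change -0.80, SE 0.17, edgeR adjusted p = 0.000527), 2.11-fold lower in EpiSC_AFX (-1.08, SE 0.21) and 1.97-fold lower in EpiSC_AF (-0.98, SE 0.21). Without ES replicate 1, in which Aebp2 was low, the log2 changes were -0.97, -1.25 and -1.14. Scaling by total counts alone ended the FS call (-0.49, adjusted p = 0.0750).

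**Figure D2:**
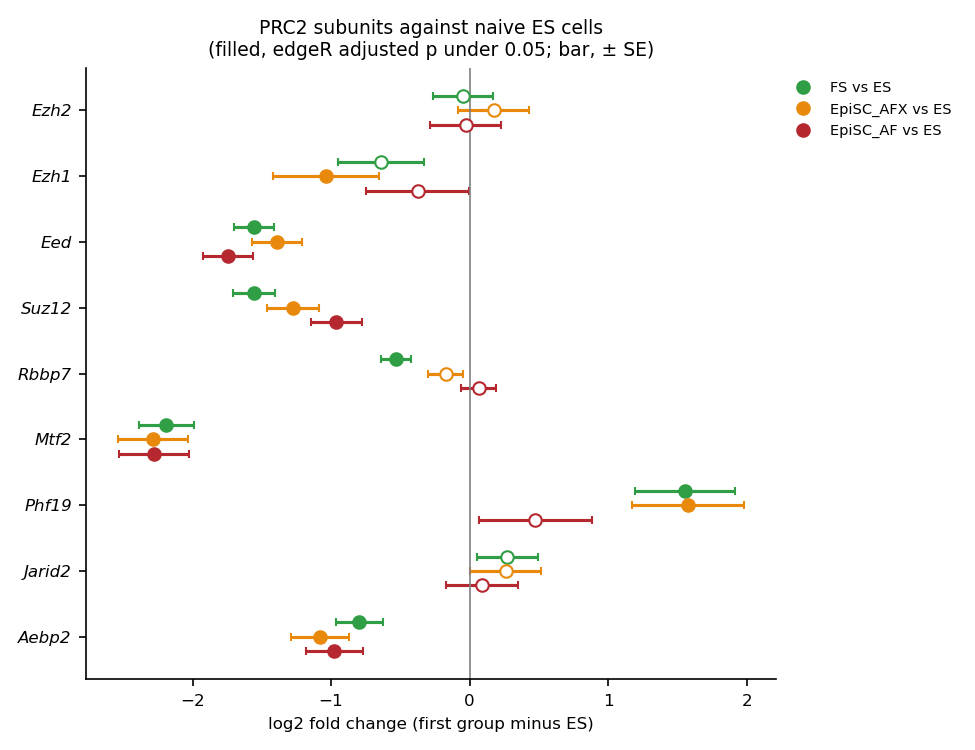
Log2 fold change of the 9 genes against ES in FS, EpiSC_AFX and EpiSC_AF, with bars of 1 SE from edgeR; filled points have an adjusted p under 0.05. Mtf2, Eed, Suz12 and Aebp2 are called lower in all 3 groups and Phf19 higher in FS and EpiSC_AFX; the changes of Ezh2 and Jarid2 lie between -0.05 and 0.27.

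ES replicate 1 differed from the mean of the other ES libraries by log2 1.18 for Mtf2 and 0.66 for Eed, and by -1.06 for Jarid2, -0.87 for Aebp2 and -0.82 for Ezh2. Suz12 differed by -0.28, and Ezh1, Phf19 and Rbbp7 by less than 0.1 in either direction. Against the same mean, the median difference of genes with the shortest transcripts was 0.31 and of those with the longest -0.33. Whether transcript length had a part in the members' values was not tested.

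Comparing the genes per kilobase of exon sequence changed the order of the subunits between ES and the other groups. In ES the mean was 110 ± 52.9 CPM per kb for Mtf2 (SD, n = 4; 83.6 ± 6.69 without replicate 1), 85.3 ± 2.24 for Rbbp7, 53.6 ± 14.4 for Eed and 42.4 ± 6.78 for Suz12. In the same libraries Jarid2 was at 14.7 ± 4.55, Aebp2 at 11.9 ± 3.19, Ezh2 at 11.3 ± 3.04, Ezh1 at 5.55 ± 0.846 and Phf19 at 0.361 ± 0.177. The spread of Mtf2 overlapped that of Rbbp7, and those of Jarid2, Aebp2 and Ezh2 overlapped each other. In FS the highest gene was Rbbp7 with 59.0 ± 6.71 CPM per kb (SD, n = 6), followed by Mtf2 with 24.1 ± 2.64. Eed at 18.2 ± 2.60, Jarid2 at 17.8 ± 5.23 and Suz12 at 14.4 ± 2.44 followed in FS, with ranges of 1 SD that overlapped, and then Ezh2 with 10.96 ± 3.07. Aebp2, Ezh1 and Phf19 were lowest in FS, at 6.88 ± 1.46, 3.57 ± 1.91 and 1.06 ± 0.408. Relative to the catalytic gene Ezh2, the core genes Eed and Suz12 were thus higher in ES than in FS. The exon length was the union over all transcripts of a gene, 6678 bases for Ezh2, 3828 for Eed and 4945 for Suz12. Their longest transcripts had 2787, 2067 and 4373 bases. The order of genes within a group depends on the length used and was not computed with the longest transcripts, whereas changes of a gene between groups do not depend on it. EpiSC_AFX had the same order of the 9 genes as FS, with 75.7 CPM per kb for Rbbp7, 22.5 for Mtf2, 20.4 for Eed, 17.7 for Jarid2, 17.5 for Suz12 and 12.8 for Ezh2. In EpiSC_AF, Rbbp7 was at 89.4, Mtf2 at 22.7, Suz12 at 21.7, Eed at 16.01, Jarid2 at 15.7 and Ezh2 at 11.1.

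FS against EpiSC_AFX gave no call among the 9 genes, beside 5.00% of all genes called, with 1 member at an unadjusted p under 0.05 and 1 call with DESeq2. That member was Rbbp7 in both, with a log2 difference of -0.36 (SE 0.12, unadjusted p = 0.00623, edgeR adjusted p = 0.0843). DESeq2 gave it an adjusted p of 0.0251, and without FS replicate 3 edgeR gave 0.0303. The difference was -0.17 for Eed (SE 0.16), 0.10 for Mtf2 (SE 0.22), -0.28 for Suz12 (SE 0.17), 0.01 for Jarid2 (SE 0.24) and -0.22 for Ezh2 (SE 0.24). It was 0.40 for Ezh1 (SE 0.35) and -0.03 for Phf19 (SE 0.36). Aebp2 was higher in every FS library than in any EpiSC_AFX library, and its difference of 0.28 (SE 0.19) did not pass the test (adjusted p = 0.476).

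Against EpiSC_AF, 2 of 9 genes were lower in FS, beside 16.6% of all genes called. Rbbp7 was 1.51-fold lower (log2 change -0.60, SE 0.11, edgeR adjusted p = 0.00151). Suz12 was 1.51-fold lower as well (-0.59, SE 0.16, adjusted p = 0.0201). Both were without overlap of libraries, and the share of all genes without overlap was not computed for this comparison. The Suz12 call was lost without EpiSC_AF replicate 3, its highest EpiSC library (-0.37, adjusted p = 0.198), with total counts as the only scaling (-0.50, 0.132) and with 5ar1 as the only FS line (-0.60, 0.0586). Suz12 lies on chromosome 11, whose 1396 tested genes had a median change of -0.39 in the same comparison and 37.2% called, against a median of 0.04 over all genes. In EpiSC_AF against ES the median of chromosome 11 was 0.29. The part of chromosome 11 as a whole in the Suz12 result was not tested. Rbbp7 lies on the X chromosome, where the median change was 0.01. Phf19 was 2.11-fold higher in FS than in EpiSC_AF with overlap (log2 1.08, SE 0.39, edgeR adjusted p = 0.0657). It passed with DESeq2 (0.0253), without FS replicate 6 (1.198, 0.0395) and without EpiSC_AF replicate 3 (1.47, 0.0475). The differences of the other 6 genes were -0.26 for Ezh1 (SE 0.34), -0.02 for Ezh2 (SE 0.24), 0.19 for Eed (SE 0.16), 0.18 for Jarid2 (SE 0.24), 0.09 for Mtf2 (SE 0.22) and 0.18 for Aebp2 (SE 0.19), with no call.

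Markers of other cell types also differed between the groups. In EpiSC_AF the 4 endoderm markers (Sox17, Foxa2, Cer1 and Gata6, all detected in each library) summed to 189 to 533 CPM, against 0.128 to 6.93 in FS, 1.05 to 124 in EpiSC_AFX and 0.226 to 0.638 in ES. The 7 fibroblast markers summed to 33.0 to 79.4 CPM in EpiSC_AF, against 17.3 to 34.4 in FS, 12.3 to 20.4 in EpiSC_AFX and 0.587 to 1.11 in ES. They did not move together: of the 6 tested, 4 were lower and 1 higher in FS than in EpiSC_AF. Thy1 had a mean of 13.2 CPM in FS and 1.07 in EpiSC_AF, whereas Col1a2 had 7.42 and 27.8. Lum was at 0 in 1 of 3 EpiSC_AF, 2 of 3 EpiSC_AFX, 4 of 6 FS and 2 of 4 ES libraries, and Dcn at 0 in all 4 ES libraries. The part of these markers' cells in the differences between groups was not tested.

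Between the EpiSC groups no member was called (4.26% of all genes called), with 1 at an unadjusted p under 0.05 and none called with DESeq2. Phf19 had the largest difference, 1.10 higher in EpiSC_AFX on the log2 scale (SE 0.43, edgeR adjusted p = 0.173), and its libraries did not overlap. Ezh1 was lower in every EpiSC_AFX library than in any EpiSC_AF library, with a difference of -0.66 (SE 0.40, adjusted p = 0.430). Suz12 also was, with -0.31 (SE 0.19, adjusted p = 0.439). Both lie on chromosome 11, whose median change in this comparison was -0.42 with 20.1% of its genes called, and its part in them was not tested. Eed differed by 0.35 (adjusted p = 0.351), and passed when only those 2 groups were fitted (0.0308). Libraries of the EpiSC groups did not overlap for Eed and Aebp2 either, so 5 of the 9 genes had no overlap. The share of all genes without overlap was not computed for this comparison, so this count is a description only. The remaining differences were 0.20 for Ezh2 (SE 0.27), 0.17 for Jarid2 (SE 0.28), -0.01 for Mtf2 (SE 0.25), -0.10 for Aebp2 (SE 0.22) and -0.24 for Rbbp7 (SE 0.13).

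**Figure D3:**
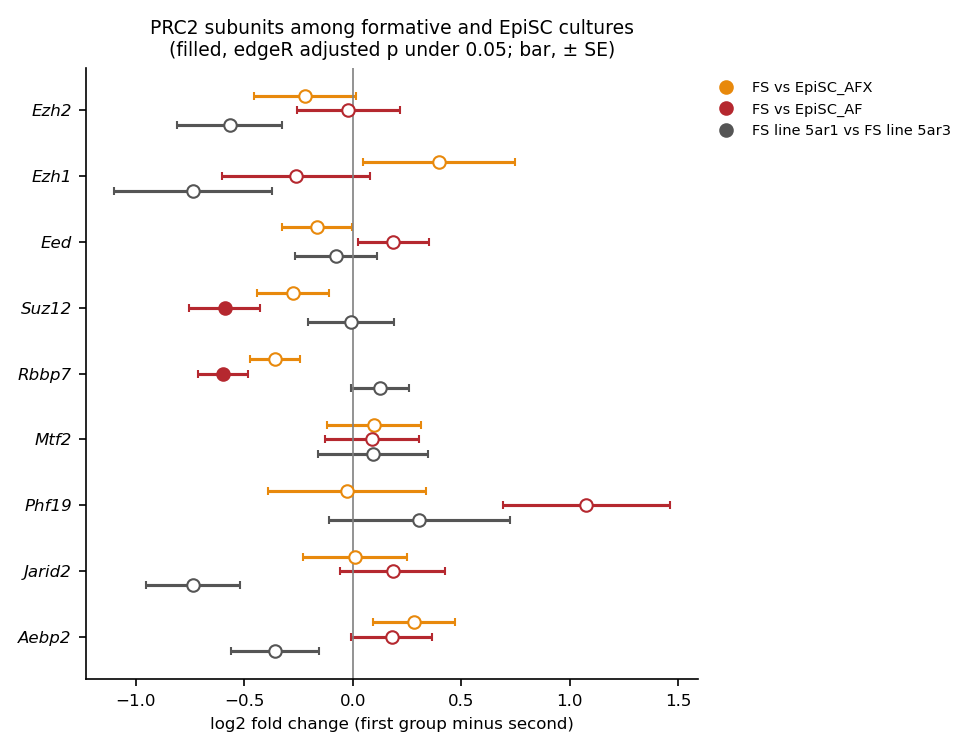
Log2 fold change of the 9 genes for FS against EpiSC_AFX, FS against EpiSC_AF and the FS line 5ar1 against 5ar3, with bars of 1 SE from edgeR; filled points have an adjusted p under 0.05. Only Suz12 and Rbbp7 in FS against EpiSC_AF are filled; Jarid2 between the FS lines is at -0.74 with an adjusted p of 0.0698.

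The 2 FS lines were compared with each other, with 3 passages each. No member was called, beside 3.88% of all genes, with 2 at an unadjusted p under 0.05 and 1 called with DESeq2. Jarid2 was at 141, 133 and 116 CPM in 5ar1 and at 209, 245 and 195 in 5ar3. All 5ar3 values were above all 5ar1 values, and the log2 difference was -0.74 (SE 0.22, edgeR adjusted p = 0.0698). Jarid2 passed with DESeq2 (-0.75, adjusted p = 0.0226) and with no low-count filter (-0.73, 0.0389). Ezh2 was at 68.6, 68.0 and 40.3 CPM in 5ar1 and at 77.2, 82.0 and 103 in 5ar3, with no overlap and a difference of -0.57 (SE 0.24, adjusted p = 0.230). Aebp2 was within 58.5 to 60.8 CPM in 5ar1 and 64.4 to 96.2 in 5ar3 (-0.36, SE 0.20, adjusted p = 0.371). The share of all genes without overlap between the lines was not computed. Ezh1 was the most variable member within FS, with a coefficient of variation of 53.5%, and without FS replicate 1 it differed between the lines (-1.46, adjusted p = 0.0114). Mtf2 was the most even in FS, with a coefficient of variation of 10.9%. The lines also differed in the deviation of the longest class of transcripts minus that of the shortest. It was 0.10, -0.04 and -0.38 in FS replicates 1 to 3 (5ar1) and 0.22, 0.18 and -0.09 in FS replicates 4 to 6 (5ar3). The part of transcript length in the differences between the lines was not tested.

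The share of the catalytic subunits was expressed as the ratio of Ezh2 to Ezh1 per kilobase of exon. It was 1.31, 2.71, 1.74 and 2.56 in the ES libraries and 2.16, 5.54, 4.19, 3.70, 1.87 and 4.21 in FS replicates 1 to 6. In EpiSC_AFX it was 3.34, 5.43 and 6.27, and in EpiSC_AF 2.86, 2.06 and 2.85. Ezh2 was above Ezh1 per length in all 16 libraries, every EpiSC_AFX library was above every ES library, and the other pairs of groups with ES overlapped. The mean log2 ratio was 0.995 ± 0.495 in ES (SD, n = 4), 1.75 ± 0.61 in FS (n = 6), 2.28 ± 0.48 in EpiSC_AFX (n = 3) and 1.36 ± 0.27 in EpiSC_AF (n = 3). FS was higher than ES by 0.76, which did not pass a two-sided exact permutation test (p = 0.0857, adjusted over 6 pairs 0.2; smallest possible p 0.00952). EpiSC_AFX was higher than ES by 1.28 (exact permutation p = 0.0571, the smallest that 3 against 4 libraries allow, adjusted 0.2). The difference between the EpiSC groups was 0.92 (exact permutation p = 0.1, also the smallest possible, adjusted 0.2), and the remaining 3 pairs had an adjusted p of 0.333.

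The balance of accessory subunits was described as the ratio of Mtf2 plus Phf19 (PRC2.1) to Jarid2 plus Aebp2 (PRC2.2), each per kilobase. Since it follows from the genes tested above, it was given no test. It was 12.2, 2.71, 3.07 and 2.52 in ES replicates 1 to 4, and 1.15, 1.39, 1.51, 0.799, 0.654 and 1.03 in FS. EpiSC_AFX gave 0.944, 1.08 and 1.01 and EpiSC_AF 1.01, 1.15 and 1.04. Transcripts of the PRC2.1 genes thus exceeded those of the PRC2.2 genes in each ES library, and the ratio was between 0.654 and 1.51 in the 12 other libraries. The geometric mean was 4.001 in ES (2.76 without replicate 1), 1.04 in FS, 1.01 in EpiSC_AFX and 1.06 in EpiSC_AF. Within FS it was 1.34 in 5ar1 and 0.812 in 5ar3.

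**Figure D4:**
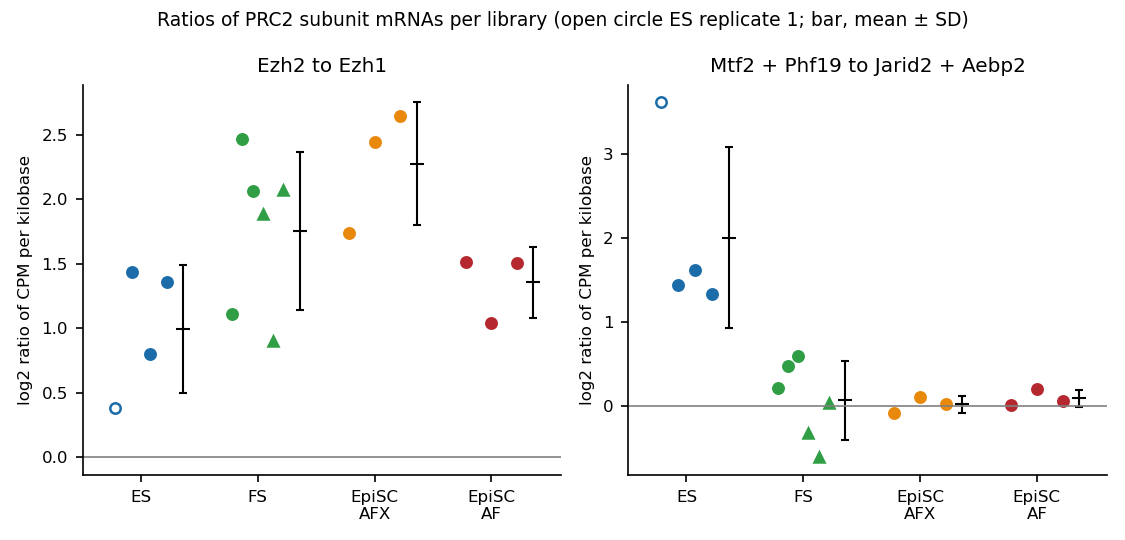
Log2 ratio per kilobase of exon in every library, for Ezh2 to Ezh1 and for Mtf2 plus Phf19 to Jarid2 plus Aebp2, by group; bars are the mean and SD, the open circle is ES replicate 1, and circles and triangles in FS are the lines 5ar1 and 5ar3. The accessory ratio of each ES library is above that of all other libraries, and the catalytic ratio overlaps between ES and FS and between ES and EpiSC_AF.

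Further PRC2 genes were read from a list of 6, of which 5 passed the low-count filter. Against ES, 2 of the 5 were lower in FS, 2 in EpiSC_AFX and 4 in EpiSC_AF, and none was higher. Of all tested genes, 62.8%, 54.7% and 56.7% were called in these comparisons, in either direction. Epop, listed as E130012A19Rik and encoding a PRC2.1 subunit that links the complex to elongin, was at 79.6 ± 14.9 CPM in ES (SD, n = 4), 11.05 ± 2.13 in FS (n = 6), 15.9 ± 4.65 in EpiSC_AFX and 14.7 ± 1.81 in EpiSC_AF (n = 3 each). Its log2 change against ES was -2.85 in FS (SE 0.18, edgeR adjusted p = 5.33e-10), beside -2.19 for Mtf2, and -2.32 and -2.44 in EpiSC_AFX and EpiSC_AF. Lcor, whose locus also encodes the PRC2.1 subunit PALI1, fell from 16.8 ± 1.60 CPM in ES to 8.71 ± 1.38 in FS (-0.95, adjusted p = 4.05e-05). Rbbp4, the paralog of Rbbp7, was at 392 ± 44.7 CPM in ES and 361 ± 47.2 in FS (-0.12, adjusted p = 0.368). Rbbp4 was lower in EpiSC_AF, at 264 ± 15.02 CPM, than in ES (-0.57, adjusted p = 0.00166) and than in FS (FS higher by 0.45, adjusted p = 0.0201). That order was opposite to that of Rbbp7 between FS and EpiSC_AF. The Rbbp4 call in FS against EpiSC_AF was lost without any one of the EpiSC_AF libraries (adjusted p = 0.0513, 0.0978 and 0.0811). Phf1, a Polycomb-like paralog of Mtf2 and Phf19, was at 5.72 CPM in ES and 3.84 in FS (-0.57, adjusted p = 0.0522), and passed in EpiSC_AF (-0.95, 0.0126). In FS it passed with the DESeq2 Wald test (0.0364), without mitochondrial genes (0.0473), with only the groups compared (0.0494), with 5ar1 alone (0.0322) and without FS replicate 4 (0.0248) or 5 (0.0415). The EpiSC_AF call of Phf1 was lost without EpiSC_AF replicate 1 (0.0646). Lcorl was at 29.6 CPM in ES and 38.2 in FS (0.37, adjusted p = 0.338). It passed without ES replicate 1 (0.87, adjusted p = 0.0220) and with total counts as the only scaling (0.84, 0.0207), and was -0.21 with passage as a covariate. Without ES replicate 1, Rbbp4 in FS against ES was at -0.05, and the calls of Epop, Lcor, Rbbp4 and Phf1 against ES held. Of the 4 calls in EpiSC_AF, 1 was left with total counts as the only scaling.

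Genes of other chromatin complexes included some that were higher and some that were lower outside ES. The lists hold 22 PRC1 genes, 4 genes of PR-DUB, which removes ubiquitin from histone H2A, 2 demethylases of lysine 27 and 9 genes of the MLL/COMPASS complexes, which methylate lysine 4. Of the 22 PRC1 genes, 7 were higher and 5 lower in FS than in ES, beside 62.8% of all tested genes called in either direction. In EpiSC_AFX 6 were higher and 7 lower (54.7% of all genes called), and in EpiSC_AF 7 higher and 7 lower (56.7%). The median log2 change of the PRC1 genes in FS was -0.06 against 0.04 over all genes. The count for EpiSC_AFX was 8 in place of 13 both under total-count scaling and without EpiSC_AFX replicate 1. Yaf2, which encodes a subunit of variant PRC1, rose from 3.66 ± 1.62 CPM in ES to 15.9 ± 1.68 in FS (log2 change 2.14, edgeR adjusted p = 1.14e-07), and Cbx2, a reader of methylated lysine 27, from 20.2 ± 6.11 to 53.3 ± 9.53 (1.39, 3.38e-06). Bmi1, a subunit of canonical PRC1, fell from 31.7 ± 2.27 to 8.70 ± 2.83 CPM (-1.87, adjusted p = 2.01e-06), and Pcgf1, a subunit of variant PRC1, from 13.8 to 7.37 (-0.90, 0.000397).

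The 4 PR-DUB genes gave 1 higher and 1 lower call in FS against ES, beside 62.8% of all tested genes called. Asxl2, a cofactor of the deubiquitinase, fell from 103 to 53.5 CPM (log2 change -0.94, edgeR adjusted p = 4.68e-06). Bap1, the deubiquitinase itself, was at 68.6 CPM in ES and 87.7 in FS (0.35, 0.0192), a call lost when only the groups compared were fitted (0.0502) or with 5ar3 as the only FS line (0.0726). The Bap1 change was 0.22 (0.0409) without ES replicate 1. The 9 MLL/COMPASS genes gave 2 higher and 4 lower calls in FS, and 4 lower calls in each EpiSC group. The share of all tested genes called against ES was 54.7% in EpiSC_AFX and 56.7% in EpiSC_AF. The core subunits Ash2l and Wdr5 fell from 410 ± 18.6 to 135 ± 8.41 CPM (-1.60, adjusted p = 4.78e-11) and from 370 ± 54.0 to 125 ± 23.2 (-1.56, 2.58e-08), falls of the size seen for Eed and Suz12. The methyltransferase genes Kmt2a and Kmt2d rose from 45.9 ± 8.25 to 87.8 ± 34.8 CPM (0.94, adjusted p = 0.00466) and from 41.8 ± 7.09 to 90.0 ± 57.9 (1.11, 0.00881).

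The lysine 27 demethylase gene Kdm6a set EpiSC_AFX apart from the other groups. Its level was 154 ± 2.77 CPM in EpiSC_AFX (SD, n = 3), against 94.9 ± 7.38 in FS (n = 6), 81.4 ± 6.36 in EpiSC_AF (n = 3) and 84.0 ± 12.4 in ES (n = 4). EpiSC_AFX was higher than ES by log2 0.87 (edgeR adjusted p = 1.38e-05), than EpiSC_AF by 0.92 (0.000571) and than FS by 0.69 (FS minus EpiSC_AFX -0.69, adjusted p = 0.00159, but 0.0898 with total counts as the only scaling). In FS against ES the change was 0.18 (adjusted p = 0.156), which became 0.10 without ES replicate 1 and 0.52 under total-count scaling (0.0137). Kdm6b was at 18.8 ± 12.5 CPM in FS, 23.6 ± 3.21 in EpiSC_AFX, 6.58 ± 1.32 in EpiSC_AF and 10.3 ± 2.28 in ES. It was called higher in FS (1.52, adjusted p = 0.0233) and in EpiSC_AFX (1.84, 0.0365) than in EpiSC_AF, and in EpiSC_AFX than in ES (1.19, 0.0278). The call in EpiSC_AFX against EpiSC_AF was lost without any one of the 6 libraries (adjusted p = 0.0733 to 0.151) and with total counts as the only scaling (0.0793). That in FS against EpiSC_AF was lost without any one of the EpiSC_AF libraries (0.102, 0.0971 and 0.0511) and with only the groups compared (0.0664). That in EpiSC_AFX against ES was lost without ES replicate 1 (0.0769), EpiSC_AFX replicate 1 (0.0806) or EpiSC_AFX replicate 2 (0.0574). With no low-count filter all 3 were lost (0.0977, 0.0649 and 0.0586). In FS against ES, Kdm6b changed by 0.86 (adjusted p = 0.0563) and passed under 7 alternatives, among them the DESeq2 Wald test (0.0341) and 5ar3 alone (1.09, 0.00926).

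**Figure D5:**
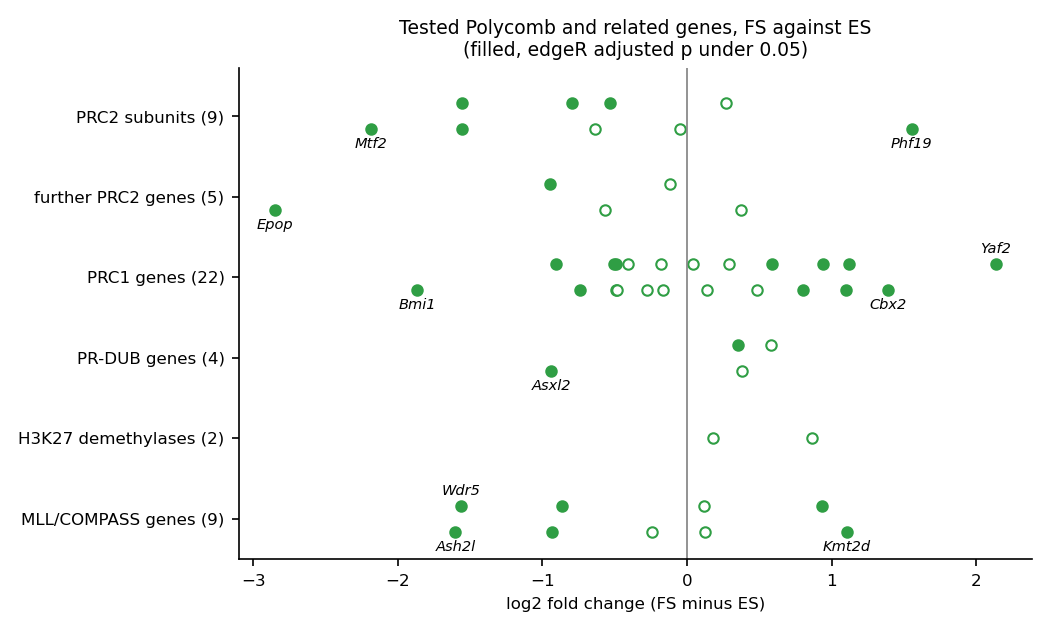
Log2 fold change of FS against ES from edgeR for each tested gene of 6 lists (9 PRC2 subunits, 5 further PRC2 genes, 22 PRC1, 4 PR-DUB, 2 lysine 27 demethylase and 9 MLL/COMPASS genes); filled points have an adjusted p under 0.05. Epop, Mtf2, Bmi1, Ash2l, Wdr5, Eed and Suz12 lie between -2.85 and -1.55, and Yaf2, Phf19 and Cbx2 at 1.39 or above.

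Of 14 developmental genes known as bivalent Polycomb targets in ES cells, 10 passed the low-count filter, and most were at low levels. In FS against ES, 4 were higher and 2 lower, of which 3 calls were left among genes with a mean of at least 1 CPM. In EpiSC_AF against ES 7 were higher and 1 lower, and in EpiSC_AFX 3 were higher and 2 lower. Of all tested genes, 62.8% were called against ES in FS, 56.7% in EpiSC_AF and 54.7% in EpiSC_AFX. Cdkn2a, which encodes cell cycle inhibitors, was at 17.6 ± 4.29 CPM in ES and had means of 0.0711 in FS, 0.923 in EpiSC_AFX and 2.19 in EpiSC_AF. Cdx2, a trophectoderm and posterior regulator, had means of 0.649 CPM in ES and 0.0226 in FS. The mesodermal regulator Wt1 had means of 0.0385 CPM in ES and 0.605 ± 0.514 in FS. The neural regulator Nkx2-2 had means of 0.0173 CPM in ES and 0.426 ± 0.538 in FS, where its highest library was at 1.51. The Nkx2-2 call in FS against ES (edgeR adjusted p = 0.00491) was lost with passage as a covariate (0.0594). Gata6 is also one of the endoderm markers that were high in EpiSC_AF.

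The genes most like Ezh2, Ezh1 and Jarid2 in pattern were found by the Pearson correlation of log2 CPM over the 16 libraries, among 9583 genes with a mean of at least 10 CPM. For Ezh2 these were Gm11847 (r = 0.874), Anapc2 (0.867) and Smc3 (0.861), and without ES replicate 1 their values were 0.836, 0.850 and 0.837. For Ezh1 they were Zfp516 (0.952), Spice1 (0.922) and Poli (0.921), with 0.950, 0.919 and 0.920 without that library. For Jarid2 they were Dlg1 (0.889), Smc3 (0.879) and Numa1 (0.870), which dropped to 0.769, 0.770 and 0.714. The likeness to Jarid2 thus rested in part on ES replicate 1. The 16 libraries are passages of 5 lines, so these correlations are descriptions.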

How the data were processed

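Libraries of cultured mouse cells were made from total RNA with a directional kit, per the labels' protocols. The authors deposited raw counts per gene. The submitters' processing notes name Trim Galore, TopHat2 2.1.0, featureCounts 1.5.0 and mm10. The strand setting of counting is not given in the sources used here, so reads of overlapping opposite-strand genes may not be separated. The table held 34042 genes and no unnamed ones. A further 6 columns matched no sample and were not used.

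Libraries were grouped by culture condition. Genes were kept with filterByExpr (18555 of 34042), scaled by TMM and fitted to all 16 libraries with robust quasi-likelihood in edgeR 4.0.16 (R 4.3.3), with a mean per group, or per line for the FS lines. A gene was called where its p, adjusted by Benjamini-Hochberg over all tested genes of a comparison, was under 0.05 (7 comparisons). Fold changes are from the fit, and CPM are on the TMM scale. The ratio of Ezh2 to Ezh1 was tested with exact two-sided permutation (scipy 1.17.1), adjusted over 6 pairs. Positions, exon lengths and 50-base stretches are from GENCODE mouse release M21 on GRCm38 (33860 identifiers matched).

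Alternatives were DESeq2 1.42.0 (size factors and Wald test), total counts only, no mitochondrial genes, a filter at a mean of 1 CPM or none, passage as a covariate, only the groups compared, each FS line alone, each library left out, and the longest transcript as the length for the ratio. The balance of accessory subunits under transcript lengths was added after seeing the data. Total counts of 22069338 to 33290250 per library limit the precision of low genes such as Phf19. Simulated counts for 18115 genes, of which 200 differed, returned 61.9% of 2-fold and 93.7% of 4-fold differences for FS against ES. Of the simulated calls 4.35% were false. The simulated libraries were independent and had no lines, and far fewer genes differed than the 62.8% called in FS against ES. These rates therefore need not hold for the comparisons made here.

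All 9 members are named in the report in each comparison between groups, and between the FS lines in the plot of log2 fold changes. Of the 6 lists, all further PRC2 genes and demethylases are named, and in the others the 2 called genes with the largest change in each direction in FS against ES. Ezhip was not tested, as it did not pass the filter. Pattern neighbours are the 3 genes outside the lists with the highest correlation. The members and lists were chosen with earlier results of these data known.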

Additional observations from a re-analysis of the deposited data

Results flagged for a closer look

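Mtf2 in ES stood out for 1 library: ES replicate 1 had 1076 CPM, against 432 to 499.6 in the other 3 ES libraries, a gap larger than Dixon's criterion allows for 4 values. Aebp2 in FS stood out in the same way, with 96.2 CPM in FS replicate 5, against 58.5 to 67.9 in the other 5 FS libraries. In all, 20 such tests were made over the 9 members and the ratio of Ezh2 to Ezh1 in FS and ES, and chance gives about 1 in 20. The calls of Mtf2 and Aebp2 in FS against ES held without the library concerned. Between ES replicate 1 and the rest of ES, chi-square per degree of freedom over genes was 222 to 261, against 8.40 to 16.4 among the other ES pairs. Pairs within a line of the other groups gave 24.9 to 119. The correlation of log2 CPM was 0.969 to 0.976 between ES replicate 1 and the rest of ES and 0.986 to 0.990 among the other ES pairs. Within the FS lines it was 0.966 to 0.987.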

How the results depend on the processing

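The 18 member calls gave 148 values with 1 library left out, of which 144 kept the call, and 160 values under other settings, of which 154 kept it. None of these reversed direction. The 45 member differences without a call passed the test in 5 of 338 values with a library left out and in 8 of 398 under other settings. Members called in FS against EpiSC_AFX numbered 1 with the DESeq2 Wald test and 0 to 1 with a library left out. FS against EpiSC_AF gave 1 with total counts only and 1 with 5ar1 alone, and 2 to 3 with a library left out. EpiSC_AFX against EpiSC_AF gave 1 with only the groups compared. The FS lines gave 1 with no low-count filter, 1 with the DESeq2 Wald test, and 0 to 1 with a library left out.

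Directions that turned were of differences without a call, among them 0.40 for Ezh1 in FS against EpiSC_AFX and 0.37 for Lcorl in FS against ES. With total counts only, the log2 change turned to 0.25 for Ezh2 and 0.25 for Rbbp4 in FS against ES, 0.069 for Rbbp7 in EpiSC_AFX against ES, 0.19 for Ezh2 in EpiSC_AF against ES, 0.12 for Phf19 in FS against EpiSC_AFX, 0.062 for Ezh2 in FS against EpiSC_AF and 0.061 for Suz12 between the FS lines. This scaling moved the median change of all genes by 0.36 in FS, 0.24 in EpiSC_AFX and 0.27 in EpiSC_AF against ES, and the share of calls that were higher in FS than in ES from 52.4% to 70.5%. With 5ar1 alone it turned to -0.15, -0.41 and -0.24 for Jarid2 against ES, EpiSC_AFX and EpiSC_AF, to -0.014 for Ezh1 and 0.12 for Phf19 against EpiSC_AFX, and to -0.017 for Aebp2 against EpiSC_AF. With 5ar3 alone it turned to 0.22, 0.042 and 0.24 for Ezh2 against ES, EpiSC_AFX and EpiSC_AF, and to 0.063 for Ezh1 against EpiSC_AF. With passage as a covariate it turned to -0.21 for Lcorl in FS against ES, -0.040 for Mtf2 in FS against EpiSC_AF, and 0.080 for Eed and 0.15 for Suz12 between the FS lines. Jarid2 in FS against EpiSC_AFX turned to -0.012 without mitochondrial genes, -0.011 with no low-count filter and -0.0026 with only the groups compared. Ezh2 in EpiSC_AF against ES turned to 0.0083 with no low-count filter and 0.0057 with only the groups compared, and Suz12 between the FS lines to 0.0016 with no low-count filter. The cause of these changes was not tested.

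With 1 library left out, differences that turned ranged from -0.21 to 0.084 for Ezh2 in FS against ES, -0.20 to 0.13 for Ezh2, -0.10 to 0.21 for Jarid2 and -0.047 to 0.17 for Rbbp7 in EpiSC_AF against ES, -0.12 to 0.11 for Jarid2 and -0.23 to 0.11 for Phf19 in FS against EpiSC_AFX, -0.18 to 0.15 for Ezh2 in FS against EpiSC_AF, and -0.059 to 0.043 for Mtf2 between the EpiSC groups. Between the FS lines they ranged from -0.21 to 0.027 for Eed, -0.16 to 0.18 for Suz12 and -0.11 to 0.59 for Phf19. With longest-transcript lengths, the accessory log2 ratio was 0.17 in FS, 0.14 in EpiSC_AFX, 0.20 in EpiSC_AF and 2.02 in ES, against 0.06, 0.01, 0.09 and 2.00 with exon lengths. No paired analysis was possible because replicate numbers follow accession order and passages of different lines are not matched. Depth limits genes at low levels, such as Phf19 at 1.14 to 8.82 CPM, and outside FS line and medium cannot be told apart.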
